A study of Caenorhabditis elegans with 2 samples.

Results

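Chromosome V is the longest C. elegans chromosome, and it is described here by the regions on it that ranked high in an anti-GFP chromatin immunoprecipitation and sequencing (ChIP-seq) experiment. The members are all regions on chromosome V among the 3000 strongest of the 30000 regions that the authors listed for their 2 replicates pooled, ranked by the authors' signal value. There were 380 such regions (12.7% of the 3000), and 2620 lay on the other 5 nuclear chromosomes. Both samples came from whole early embryos of mixed sex, taken 0 h after synchronization by egg bleaching, of the strain OP642, which has the genotype unc-119(tm4063) III; wgIs642. The transgene adds a C-terminal GFP-FLAG tag to the protein of the gene B0310.2, and the labels do not say which promoter drives it. The 2 samples were biological replicates 1 and 2 of this single group, both carry the transgene and the unc-119 allele, and no untagged group was analysed here. The chromosome, the rank limit and the signal chose the members, so the number of members on V and their signals are given as a description, with no test.

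The chromosome V of C. elegans is known for large families of chemoreceptor genes, which encode membrane receptors used mainly by sensory neurons and lie in tandem groups that are densest towards its arms. The arms of worm autosomes recombine more often than the centres and carry more repeats and more young gene families. Transfer RNA (tRNA) genes are transcribed by RNA polymerase III from promoter elements inside the gene, the A box and the B box, while small nucleolar RNA (snoRNA) genes, whose products guide the chemical modification of ribosomal RNA, often sit within introns of protein-coding genes in this species.

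The strongest regions of V lay at small RNA genes, so the DNA of these places is shown first. The first 3 sequences are the 101 bp around the summits (the position of highest signal) of the 3 strongest members, each beside a snoRNA gene. They are in build ce11 and on the plus strand. Capitals mark the letters GTTCNANNC, the core of the B box consensus, on either strand. This motif was chosen after these sequences had been seen.
C51F7.4 and C51F7.3, chrV:12303593-12303693: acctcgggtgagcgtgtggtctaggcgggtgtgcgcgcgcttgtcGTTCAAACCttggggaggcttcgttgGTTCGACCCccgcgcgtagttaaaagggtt
T03F7.8, chrV:11314164-11314264: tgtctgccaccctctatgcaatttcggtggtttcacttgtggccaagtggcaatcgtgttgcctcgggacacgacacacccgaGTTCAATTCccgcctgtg
T06C12.16, chrV:15873927-15874027: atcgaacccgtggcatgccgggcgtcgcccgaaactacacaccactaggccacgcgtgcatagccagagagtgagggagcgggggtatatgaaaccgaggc

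The next 5 are the whole tRNA genes of the 5 strongest members at tRNA genes, each read in the direction of transcription, with the same motif in capitals. They show where in the gene the motif lies.
F57F5.t1 (tRNA-Ile, plus strand), chrV:12002176-12002260: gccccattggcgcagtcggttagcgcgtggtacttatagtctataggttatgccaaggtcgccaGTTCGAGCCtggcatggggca
K06A4.t1 (tRNA-Ala, plus strand), chrV:9503562-9503633: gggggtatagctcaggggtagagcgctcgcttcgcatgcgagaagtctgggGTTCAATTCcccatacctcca
ZC455.t1 (tRNA-Ser, minus strand), chrV:12780386-12780467: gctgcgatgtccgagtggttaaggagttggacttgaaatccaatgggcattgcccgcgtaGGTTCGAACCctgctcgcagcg
F15B9.t1 (tRNA-Ala, minus strand), chrV:13003509-13003580: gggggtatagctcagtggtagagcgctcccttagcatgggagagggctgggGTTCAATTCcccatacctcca
Y39B6A.t9 (tRNA-Phe, plus strand), chrV:19126044-19126116: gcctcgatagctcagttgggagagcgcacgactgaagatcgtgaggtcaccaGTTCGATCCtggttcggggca

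The last 3 are summit windows away from annotated small RNA genes, again on the plus strand of ce11. They are the 2 strongest members at protein-coding promoters and not near a small RNA gene, and the strongest member in an intron.
fce-2 and F48F5.8 promoter, chrV:20424456-20424556: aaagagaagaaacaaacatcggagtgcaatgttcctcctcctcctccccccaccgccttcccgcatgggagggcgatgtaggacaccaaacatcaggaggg
drap-1 promoter, chrV:9731110-9731210: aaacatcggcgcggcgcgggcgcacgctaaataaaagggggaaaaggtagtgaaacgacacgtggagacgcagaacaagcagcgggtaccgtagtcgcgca
srt-52 intron, chrV:53457-53557: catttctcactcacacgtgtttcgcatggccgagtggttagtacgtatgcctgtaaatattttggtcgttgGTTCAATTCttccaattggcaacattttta

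Chromosome V held fewer of the 3000 regions than its size. It makes up 20.9% of the length of the 6 chromosomes and 25% of their protein-coding genes (4994 of 19973), against its 12.7% of the 3000 regions. Per Mb there were 18.2 members on V, against 33.0 on the other 5 chromosomes together. Taken singly, those had 23.8 per Mb on IV, 29.4 on X, 33.6 on II, 39.7 on I and 41.4 on III, so V had the lowest density of the 6. At the density per Mb of the other 5, V would have held 691 regions, and the 380 found were 55.0% of that. V carries 890 of the 1310 chemoreceptor genes (67.9%), and these take up 17.8% of its protein-coding genes, against 2.80% on the other 5. With chemoreceptor genes left out, V has 22.0% of the remaining protein-coding genes, and the members were 51.5% of the 739 regions that the rate per such gene on the other 5 would give.

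The share on V changed with depth in the list. It was 11.8% of ranks 1 to 642, which form the list that the authors kept after thresholding on IDR, the irreproducible discovery rate, which scores how well regions keep their rank between replicates. It lay between 12.0% and 14.2% in the 5 successive groups of ranks from 643 to 3000. It was 15.1% in ranks 3001 to 6000 and 17.4% in ranks 20001 to 30000, and V held 16.1% of all 30000 regions (4842). None of these groups reached the share of length, and the low ranks came nearest to it. Of the regions listed on V, 7.85% were among the top 3000, against 10.4% on the other 5 chromosomes. At that rate V would have held 504 members.

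**Figure D1:**
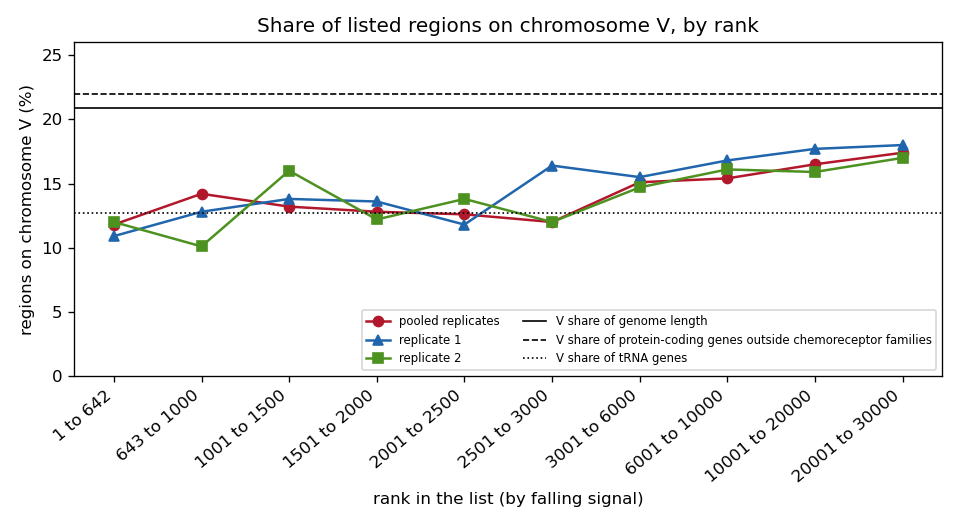
The share of listed regions that lie on chromosome V (vertical axis, %) for successive groups of ranks (horizontal axis) in the pooled list and in each replicate's own list. The solid line is V's share of genome length (20.9%), the dashed line its share of protein-coding genes outside the chemoreceptor families (22.0%) and the dotted line its share of tRNA genes (12.7%). All 3 lists lie below the solid line in every group of ranks.

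The replicates' own lists gave like shares. V held 394 (13.1%) of the top 3000 regions of replicate 1 and 383 (12.8%) of those of replicate 2, and 17.0% and 15.8% of their whole lists. The pooled list was made from the same alignments as these, so this is no independent measurement.

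Signal of the members covered almost the whole range of the 3000 regions, whose lower end is set by the rank limit. It was 88.4 at the lowest member, 106 at the median and 1099 at the highest, and the median on the other 5 chromosomes was also 106. Of the members, 76 (20%) were in the authors' IDR-thresholded list, where 21.4% of all 3000 regions were. Of the 380 regions, 368 were 476 bp wide and the others were narrower, down to 121 bp. Some overlapped one another, and joining overlaps left 358 separate places. The 5 members closest to the rank limit from inside had signals of 88.44 to 88.76, and the 5 regions of V just outside had 88.14 to 88.20. Those inside were 2 introns, 1 intergenic site and the promoters of haf-3 and W04E12.5, and those outside included the promoter of R02D5.1.

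Very strong regions were present on V all the same. Members took 3 of the first 10 ranks, 8 of the first 50 and 14 of the first 100, and 13 of these 14 were within 200 bp of a small RNA gene (here snoRNA, snRNA and tRNA genes together with tRNA pseudogenes). The strongest, rank 2 with a signal of 1099, lay in an intron of frm-7, which encodes a FERM domain protein, beside the snoRNA genes C51F7.4 and C51F7.3. It ranked 1 in replicate 1 and 2 in replicate 2. The next, rank 6 with a signal of 802.5, lay in cutl-18, a cuticlin-like gene, at the snoRNA gene T03F7.8, and ranked 7 and 6 in replicates 1 and 2. Rank 10, with 731.3, was at the snoRNA gene T06C12.16 and ranked 9 in both replicates. Its 100 kb window holds 19 chemoreceptor genes, so it stood inside one of the densest chemoreceptor groups.

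The rest of the 20 strongest members were also mostly at snoRNA and tRNA genes. The snoRNA gene ZK994.7, within the peroxidasin gene pxn-1, had rank 13 with a signal of 626.1, and Y43F8C.22 had rank 15 with 520.4. F55A11.10 (rank 41, signal 432.6), Y75B12B.12 (rank 54, 397.3), C27H6.5 within the synaptic gene unc-41 (rank 60, 370.9) and K11C4.6 within the beta-spectrin gene unc-70 (rank 102, 309.6) completed the snoRNA genes in this set. The strongest tRNA gene was F57F5.t1, a tRNA-Ile gene between gcy-33 and cpr-9, at rank 24 with a signal of 479.7 and ranks of 21 and 27 in replicates 1 and 2. It was followed by the tRNA-Ala gene K06A4.t1 within the sugar transporter gene swt-5 (rank 46, 419.6), the tRNA-Ser gene ZC455.t1 (rank 64, 359.4) and the tRNA-Ala gene F15B9.t1 within the formin gene inft-2 (rank 83, 336.7). Y39B6A.t9 and ZC412.t1, both tRNA-Phe genes, had ranks 94 (325.1) and 177 (243.2), and the tRNA-Asp gene F28F8.t3 within acr-18, an acetylcholine receptor subunit gene, had rank 111 (293.2). Only 4 of the 20 were at no small RNA gene. They were the promoter shared by fce-2, a protease of the CAAX-processing kind, and F48F5.8 (rank 89, 330.3), an intergenic site (rank 165, 247.6), the 3' UTR of zig-11 (rank 176, 243.8) and the promoter of drap-1, whose product is related to a general transcription corepressor (rank 190, 237.4).

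Position along the chromosome was read as the left arm (below 25% of the length), the centre (25 to 75%, which on V is 5.23 to 15.7 Mb) and the right arm (above 75%). The centre held 220 members (57.9%), the left arm 76 and the right arm 84. The centre held 53.4% on X, 50.7% on III, 49.0% on II, 45.6% on IV and 45.5% on I, and 47.8% on the other 4 autosomes together. Among all regions listed on V it held 47.2%, so the members lay nearer the centre than the list they were taken from. Of the 76 members in the authors' list, 54 (71.1%) were in the centre, 7 in the left arm and 15 in the right arm.

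The density was below that of the other 4 autosomes pooled in every part of V. Per Mb, V had 14.5 members in the left arm, 21.0 in the centre and 16.1 in the right arm, against 34.8, 32.5 and 36.3 on the other 4 autosomes. On V the centre had the highest of the 3 values, as on X (28.7, 31.4 and 26.2). On the other autosomes together it had the lowest, but singly only on I (47.0, 36.1 and 39.5). On II (23.3, 33.0 and 45.3), III (34.5, 41.9 and 47.0) and IV the centre had the middle value. Taken singly, chromosome IV came nearest to V, with 34.5 per Mb in its left arm, 21.7 in its centre and 17.4 in its right arm, so its right arm lay below the centre of V. Counted per 1000 protein-coding genes outside the chemoreceptor families, the parts of V were closer to each other, at 85.9, 95.3 and 92.3, against 203, 147 and 232 on the other autosomes. The kind of region also differed along V. A promoter held 36.8% of the left arm's members, 48.6% of the centre's and 31.0% of the right arm's. The order was the same among all regions listed on V (31.1%, 36.5% and 27.1%) and on the other 4 autosomes (40.7%, 44.0% and 39.1%). A small RNA gene lay near 4, 36 and 10 of the members of these parts of V. The parts carry 9, 46 and 23 tRNA genes and 7, 40 and 8 snoRNA genes.

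**Figure D2:**
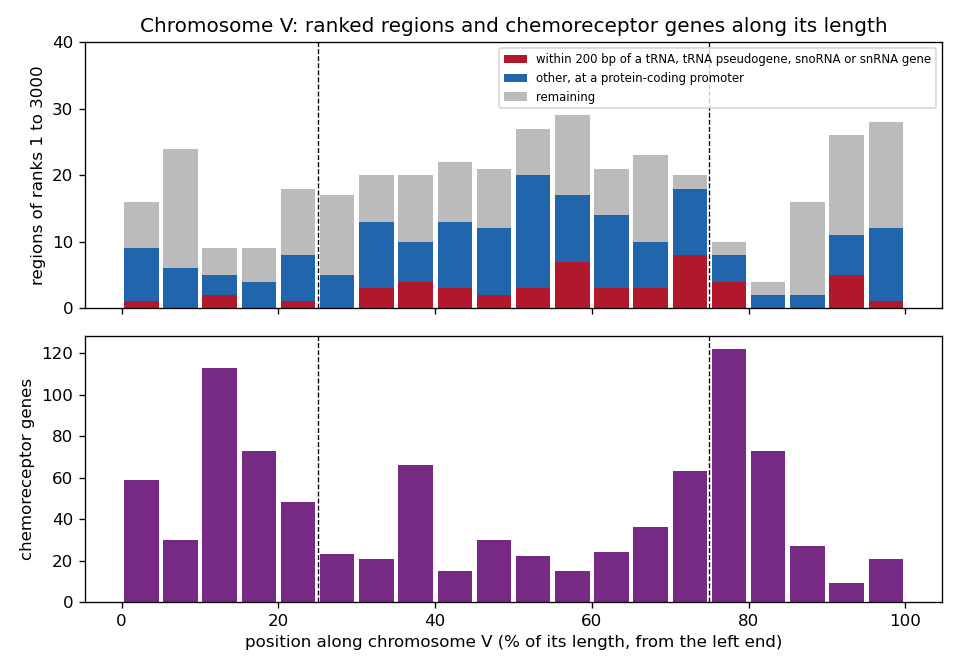
Members on chromosome V (upper panel, number per bin, split by kind) and chemoreceptor genes (lower panel, number per bin) in 20 bins of equal length. The horizontal axis is the position in % of the chromosome's length and the dashed lines bound the centre. The bins from 10 to 20% and from 75 to 85%, with 73 to 122 chemoreceptor genes each, hold 4 to 10 members. The bins at 35 to 40% and 70 to 75%, with 66 and 63 chemoreceptor genes, hold 20 each.

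Members were sparse where chemoreceptor genes were dense. The chromosome was divided into windows of 100 kb, and a window was called rich if at least 5 chemoreceptor genes lay in it. The 68 rich windows cover 6.80 Mb (32.5% of V) and hold 700 of its 890 chemoreceptor genes. They held 65 members (17.1% of those on V, where 4.57% of the 3000 regions of all chromosomes were in such windows), or 9.56 per Mb. The rest of V held 315 members, or 22.3 per Mb. Of the rich windows 32 (47.1%) had no member, against 21.1% of the other windows of V. Across 20 bins of equal length, the number of members and the number of chemoreceptor genes had Pearson's r = -0.69 and Spearman's rho = -0.62, as a description of bins that all belong to 1 chromosome.

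Windows of V without chemoreceptor genes were still below the other 5 chromosomes pooled, though not below IV, which had 23.8 per Mb over its whole length. V had 24.6 members per Mb in windows with no chemoreceptor gene and 21.2 per Mb in windows with 1 to 4, against 33.3 per Mb in windows with under 5 on the other 5 chromosomes and 34.5 on the other 4 autosomes. The 28 rich windows of the other 5 chromosomes had 25.7 per Mb. So the rich windows had the lower density on V and on the other chromosomes alike, and V was lower than the other 5 together in both kinds of window. All 30000 listed regions showed a smaller difference within V, with 154 per Mb in rich windows and 269 per Mb in the rest.

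Other genes in these windows followed the same order. Of the 1237 protein-coding genes outside the chemoreceptor families in rich windows of V, 34 (2.75%) had a member at their promoter. The share was 5.00% in windows with 1 to 4 chemoreceptor genes and 6.29% in windows with none, against 8.20% in windows with under 5 on the other 5 chromosomes. The average share of sequence that can be placed uniquely differed little between these kinds of window, but single stretches varied more. Of the 31-base sequences, 88.4% were unique in the genome in rich windows and 90.9% in the rest of V, and 90.1% on V as a whole, against 91.6% on the other 5 chromosomes. By bins of 1 Mb, it was 70.7% at 2 to 3 Mb (99 chemoreceptor genes, 9 members) and 83.4% at 17 to 18 Mb (77 and 7). Against these, 15 to 16 Mb had 88.2% (103 and 14), and 8 to 9 Mb had 85.1% (20 and 21). The authors' handling of reads with several possible places is not given in the sources used here. Its part in the result was not tested.

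**Figure D3:**
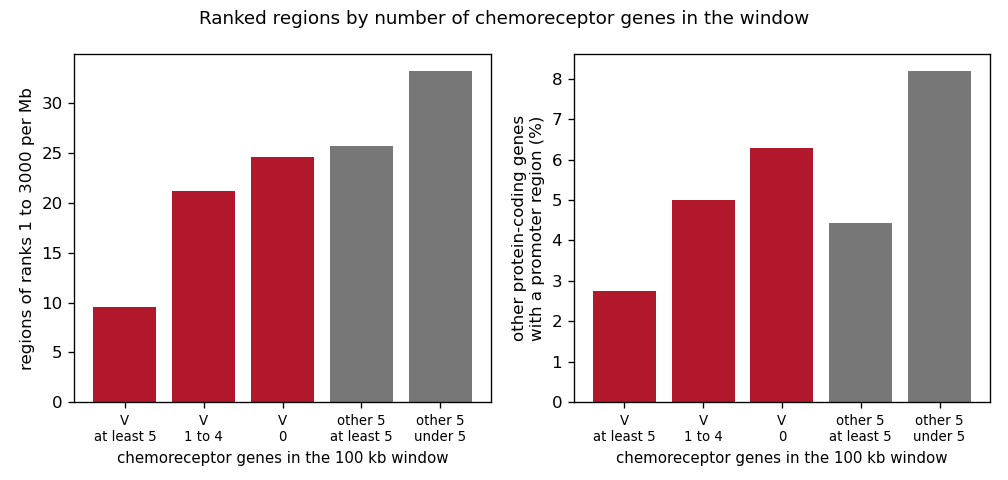
Left: members per Mb (vertical axis) in 100 kb windows of chromosome V (red) grouped by their number of chemoreceptor genes, and on the other 5 chromosomes (grey). Right: the share (%) of protein-coding genes outside the chemoreceptor families that had a ranked region at their promoter in the same windows. Both run lowest in rich windows of V (9.56 per Mb and 2.75%).

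Joined together, the rich windows formed 29 stretches. Of these 6 held no member, 17 held 1 to 3 and 6 held more. The longest, at 15.6 to 16.7 Mb with 125 chemoreceptor genes, held 10 members, 6 of them in the authors' list, and 4 of the 10 were near small RNA genes. The next, at 2.7 to 3.6 Mb with 119 chemoreceptor genes, held 8 members, 1 of them in the authors' list and none near a small RNA gene. A stretch at 0.4 to 0.9 Mb with 54 chemoreceptor genes held 2. In the authors' list the rich windows of V were less sparse relative to the rest of V, with 18 regions (2.65 per Mb) against 58 (4.11 per Mb). On the other 5 chromosomes that list had 6.79 per Mb in rich windows and 7.15 per Mb in the rest. Of those 18, 7 were near a small RNA gene.

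Long stretches of V had no member at all. The distance between neighbouring summits had a median of 21.9 kb on V, against 10.8 to 17.0 kb on the other 5 chromosomes, and was over 200 kb in 18 places on V, against 10 on IV, 8 on II, 3 on I, 2 on X and 1 on III. The longest gap was 891 kb, from 16.97 to 17.86 Mb, and covered 198 protein-coding genes, 81 of them chemoreceptors. The longest on any of the other 5 chromosomes was 412 kb. The gap at 2.73 to 3.15 Mb was 414 kb long and held 72 chemoreceptor genes among its 116 protein-coding genes. Not every gap was of this kind, since that at 18.08 to 18.50 Mb (418 kb) had 9 chemoreceptor genes among 96.

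A chemoreceptor promoter held a member in 6 of 890 cases on V (0.674%) and in 4 of 420 on the other 5 chromosomes (0.952%), where 6.87% of all protein-coding genes had a region at their promoter. The strongest was srh-269, of the serpentine receptor class h, with a signal of 200.1 and ranks of 472 and 243 in replicates 1 and 2. This summit lay 40 bp upstream of the tRNA-Gln gene T03E6.t1. The second, srh-16, had 158.2 (ranks 570 and 588). The other 4 were weak, at 113.3 for srh-214, 95.67 for srbc-65, 90.52 for srab-10 and 90.16 for srt-29. The srbc-65 region overlapped no region of replicate 1, and that of srt-29 ranked 16158 there. Chemoreceptor promoters thus held few members on V and on the other chromosomes alike.

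Of the members, 161 (42.4%) had their summit at a protein-coding promoter, counted from 1000 bp upstream to 300 bp downstream of a transcript's 5' end. The share was 41.0% on the other 5 chromosomes and 41.2% over all 3000, so promoters took a like share of a smaller number. Seen from the genes, 195 protein-coding genes of V had a member at their promoter (3.90%), against 7.86% on the other 5 chromosomes. Without the chemoreceptor families the shares were 4.61% and 8.06%. Per Mb of promoter sequence V had 23.8 members, against 50.4 on the other 5, and outside promoters it had 15.5, against 26.6. Of the promoter members on V, 47 (29.2%) lay at the promoters of more than 1 gene, against 19.8% on the other 5 chromosomes.

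After fce-2 and drap-1, the strongest promoter members away from small RNA genes were those of krr-1 and gei-6, F39G3.3, sas-5 and piit-1, mrck-1, plrg-1 and tos-1. Those after krr-1 were chosen for naming after their values had been seen. The krr-1 and gei-6 region, named in part for a ribosomal RNA processing protein of yeast, had a signal of 224.3 and ranks of 260 and 229 in replicates 1 and 2. That of F39G3.3 had 220.8 (ranks 299 and 228), and that of sas-5, which is needed to build centrioles in the embryo, had 219.0 (ranks 374 and 223). The region of mrck-1, a kinase gene, also had 219.0 but ranked 868 in replicate 1 and 185 in replicate 2, and that of tos-1 (214.9) ranked 1126 and 150. Replicate 2 gave the higher rank in each of these.

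The other gene families are read against the 3.90% of all protein-coding genes of V, and 6.87% of those of all 6 chromosomes, that had a region at their promoter. Of the nuclear hormone receptor genes, 1 of 167 on V had a member (nhr-142, signal 108.1), against 6 of 102 on the other 5 chromosomes. Of the F-box genes 1 of 87 had one (fbxb-72, 90.10), against 8 of 235, and of the C-type lectin genes 1 of 86 (clec-212, 92.63), against 6 of 154. Cytochrome P450 genes gave 1 of 41 (2.44%; cyp-29A2, 105.7), against 0 of 33, and UDP-glucuronosyl transferase genes 0 of 42, against 2 of 25. Of the MATH and BATH genes, 1 of 3 on V had a member (math-33, 130.2, at a promoter shared with the translation termination factor gene erfa-3), against 0 of 70. Nuclear hormone receptors are transcription factors, F-box proteins select other proteins for degradation, and cytochrome P450 and UDP-glucuronosyl transferase enzymes detoxify small molecules.

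Ribosomal protein genes, which are highly transcribed in growing cells, had a member in 0 of 8 cases on V, against 25 of 73 on the other 5 chromosomes. With 8 genes the count on V is small. Histone genes had a member in 7 of 27 cases on V, from 5 distinct regions, against 13 of 45. The strongest was at his-1 and his-2, with 163.0 and ranks of 410 and 627. The others were at his-6 and his-39 (119.4), his-37 (116.7), his-8 (90.52) and his-17 (89.22). Histone genes have near-identical copies, and in 4 of these 5 regions between 51.3% and 73.5% of the 31-base sequences were unique. The small heat shock genes hsp-16.2 and hsp-16.41 shared 1 region with a signal of 90.32, and hsp genes gave 2 of 9 on V, against 5 of 13.

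**Figure D4:**
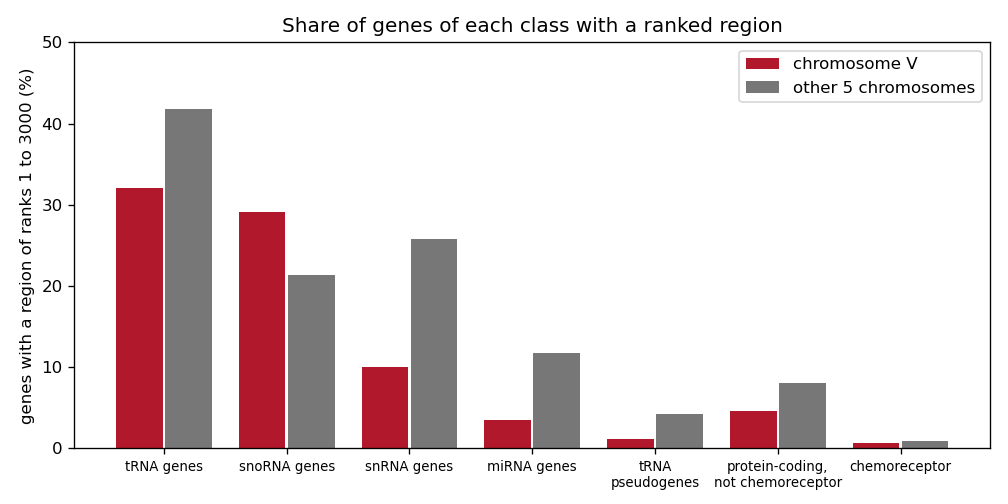
The share of genes of each class (%) that had a ranked region, within 200 bp for small RNA genes and at the promoter for protein-coding genes, on chromosome V (red, left bar) and on the other 5 chromosomes (grey, right bar). SnoRNA genes are the class in which V is higher (29.1% against 21.3%).

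Small RNA genes had 50 members near them (13.2%), against 12.6% on the other 5 chromosomes and 12.7% over all 3000. The other 330 members were 12.6% of all regions not near such genes, so the low share of V was of the same size with small RNA genes left out. Of the 50, 25 were at tRNA genes, 19 at snoRNA genes, 5 at snRNA genes and 1 at a tRNA pseudogene, and 12 of the 50 were also at a protein-coding promoter. The remaining members were 149 other promoter regions, 88 in introns, 40 outside all annotated transcripts of these kinds (called intergenic), 30 in coding exons, 10 in noncoding genes or pseudogenes, 9 in 3' UTRs, 3 in 5' UTRs and 1 at a microRNA gene. That one was at mir-87, within kup-1, with a signal of 95.41. The strongest members in introns were those of srt-52 (191.9), cdc-25.2 (168.7) and ifbp-1 (152.1). Those in coding exons were in algn-12 (173.3), smut-1 (153.7) and sqt-3, a cuticle collagen gene (151.2). Of the 29 microRNA genes on V, 1 had a member (3.45%), against 11.7% on the other 5 chromosomes and 10.9% on all 6. Members near small RNA genes were concentrated at the top, where they made up 40.8% of those in the authors' list and 5.00% of those in ranks 2501 to 3000. This was not particular to V. On the other 5 chromosomes 65.4% of the regions at tRNA genes and 67.7% of those at snoRNA genes were in that list. The shares on V were 68.0% and 63.2%. Of all regions of the other 5 chromosomes among the 3000, 21.6% were in the list.

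Of the 78 tRNA genes on V, 25 (32.1%) had a member, against 41.8% on the other 5 chromosomes and 40.5% on all 6. V carries 12.7% of the tRNA genes, against 45.1% on X. By position, 17 of 46 tRNA genes in the centre had a member, 3 of 9 in the left arm and 5 of 23 in the right arm. Of the 25 members at tRNA genes, 17 were in the authors' list. The summit lay inside the tRNA gene in 17 of the 25. Over all 25 its median position was 29.0 bp downstream of the gene's 5' end. For the 234 regions near tRNA genes on the other 5 chromosomes it was 33.0 bp. By amino acid, both tRNA-Phe genes of V had a member, as did 3 of 4 tRNA-Cys genes and 3 of 7 tRNA-Thr genes, while 0 of 3 tRNA-Met genes and 0 of 2 tRNA-Glu genes had one.

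Many tRNA genes have identical copies elsewhere in the genome. On V, 20 of 51 with at least 1 identical copy (39.2%) had a member, and 5 of 27 with a unique sequence (18.5%). On the other 5 chromosomes the shares were 44.7% and 31.0%. The strongest tRNA gene of V, F57F5.t1, has a unique sequence, as does the second, K06A4.t1. F28F8.t3 is 1 of 21 identical copies. Of the tRNA pseudogenes of V, 1 of 91 had a member (Y43F8C.t3, 91.30), against 5 of 118 on the other 5 chromosomes and 2.87% on all 6, and 87 of the 91 lie in the right arm.

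SnoRNA genes stood on the other side. Of the 55 on V, 16 (29.1%) had a member, against 21.3% on the other 5 chromosomes and 22.5% on all 6. Chromosome I had 27%, II had 26.8% and X had 6.06%, so V was close to the highest of the others. Of the 19 members at snoRNA genes 12 were in the authors' list, and in 8 of these 12 the summit lay upstream of the nearest snoRNA gene, from -63 to -1 bp relative to its 5' end. None of the 7 below that list had its summit upstream. Some of these 7 flank a stronger region, as at F55A11.10, where a second member (rank 840, signal 126.9) overlaps that of rank 41. The snRNA genes had a member in 4 of 40 cases (10.0%), against 25.8% on the other 5 chromosomes and 20.9% on all 6. Among the 40 are 12 spliced leader SL1 genes that lie in repeated sequence with no listed region near it, and without them the count was 4 of 28 (14.3%). The strongest was C52E4.8 (203.3, ranks 699 and 239), near the promoter of the spliceosomal protein gene snr-4, followed by T08G5.11 (140.0, and a flanking region with 109.6) and T27E4.11 (104.1).

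The motif in capitals in the sequences shown first was found in the 101 bp summit windows of 28 members (7.37%), against 7.94% on the other 5 chromosomes and 4.19% of all 30000 regions, searched as GTTCNANNC on both strands. It was in 60.0% of the members near tRNA genes, 21.1% of those near snoRNA genes and 2.74% of those away from small RNA genes. On the other 5 chromosomes these shares were 48.7%, 25.4% and 3.31%. Over whole tRNA genes it was in 77 of 78 on V, and in the 5 genes shown it lies near the 3' end, while the summit windows reach 50 bp to each side of the summit. The window of rank 2 holds the motif at 2 places and that of rank 10 holds no whole copy. The first letters of the rank 10 window match part of the motif on the minus strand. The window edge cuts it there, so this count does not say whether the site carries the motif. Of the 9 members away from small RNA genes with the motif, the strongest was the srt-52 intron region shown above (rank 303, signal 191.9, ranks of 139 and 513 in replicates 1 and 2). The annotation used has no small RNA gene there. The letters AGAGCG, which an earlier pass over these data had picked out, were in 7.63% of the members, against 6.68% on the other 5 chromosomes and 3.01% of all 30000 regions. They were in 10 of the 25 members near tRNA genes (40%), against 20.5% of such regions on the other 5 chromosomes. K06A4.t1 and F15B9.t1 above hold them. The fce-2 and drap-1 windows hold neither set of letters.

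Of the members, 366 overlapped a region of replicate 1 and all 380 a region of replicate 2. Replicate 1 had 211 (55.5%) among its own top 3000 and replicate 2 had 303 (79.7%). Both had 164 (43.2%), against 43.8% on the other 5 chromosomes and 43.7% over all 3000, and 30 were in the top 3000 of neither. The median rank was 2552 in replicate 1 and 1414 in replicate 2, against 2153 and 1492 on the other 5 chromosomes. Of the members 251 (66.1%) ranked higher in replicate 2, against 61.3% on the other 5 chromosomes. Since pooling used these same 2 alignments, the ranks describe the members and are no independent check. A member takes the rank of the strongest region it overlaps, which for regions flanking a stronger one is that one's rank.

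The strong members ranked high in both replicates more often than the weak ones. Of the 14 in the first 100 pooled ranks, 12 were in the first 100 of replicate 1 and 14 in the first 100 of replicate 2. Of the 76 in the authors' list, 71 (93.4%) were in both replicates' top 3000, and of the 187 with ranks from 1501 to 3000, 24 (12.8%) were. Near small RNA genes the count was 41 of 50 (82.0%), and elsewhere 123 of 330 (37.3%). Over all members, the share in both top 3000 lists was 40.8% in the left arm, 48.2% in the centre and 32.1% in the right arm. Away from small RNA genes it was 40.3%, 41.3% and 24.3%. On the other 4 autosomes, small RNA genes included, it was 37.5%, 45.6% and 44.6%. The summits of the 2 replicates lay a median of 46.0 bp apart, against 49.0 bp on the other 5 chromosomes.

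**Figure D5:**
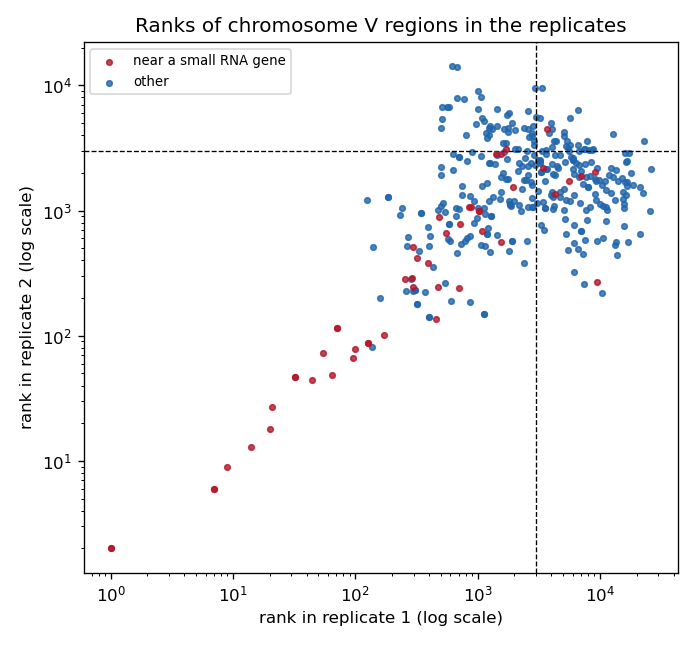
Rank in replicate 1 (horizontal, log scale) and in replicate 2 (vertical, log scale) of the 366 members of chromosome V that overlap a region in both lists, near small RNA genes (red) and elsewhere (blue). Dashed lines mark rank 3000. The points at the lower left, ranked highest in both, are near small RNA genes, and the cloud at the upper right spreads past rank 3000 more along replicate 1.

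The lowest ranks show the spread. In replicate 1 the lowest were 26117 at an intergenic site (signal 88.59), 25841 in the 5' UTR of unc-62, a homeodomain transcription factor gene (95.37), 22949 at the promoter of cpg-8 (89.00), 22671 in a coding exon of unc-70 (107.4) and 21321 within cdc-25.2, where no protein-coding transcript of that gene reaches (114.6). The unc-62 region ranked 990 in replicate 2. In replicate 2 the lowest were 14148 in an intron of the potassium channel gene slo-1 (90.84) and 14107 in an intron of kel-8 (95.95), which ranked 615 and 676 in replicate 1. The next were 9611 at the promoter of Y97E10C.1 and 9444 and 8979 at 2 intergenic sites. The 14 members with no overlap in replicate 1 had pooled ranks of 887 to 2936 and included 1 near a snoRNA gene, C16D9.11 within rol-3. Such gaps were not confined to weak members. The promoter region of T22F3.2, in the authors' list with a signal of 194.4, ranked 10338 in replicate 1 and 219 in replicate 2. The tRNA-Tyr gene C47E8.t1 (signal 176.1) ranked 9504 and 268. Both were picked after their ranks had been seen.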

How the data were processed

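Regions came from the authors' deposited lists for build ce11, 1 per replicate and 1 for both pooled, with 30000 regions each, and from their IDR-thresholded list of 642. The deposited lists give a signal, whose scale is not stated, and a −log10 q-value, which was not used for ranking. Ranks were taken by falling signal within a list. For the caller, aligner and filters, nothing is given in the sources used here. The lists hold no read counts, so depth is unknown and no interval rests on it. Protein-coding genes came from Ensembl release 115 and small RNA genes from RefSeq, both on WBcel235, the sequence of ce11, from which the printed sequences were read. A region was assigned by its summit, first to small RNA genes within 200 bp, then to microRNA and ribosomal RNA genes, and last to promoters and gene parts. Replicate ranks are those of the strongest overlapping region. Regions on a chromosome are not replicates, so no test was run. The named regions are the 20 strongest, the 3 strongest of a class or family, all at chemoreceptor promoters, 5 on each side of rank 3000 and the 5 lowest in each replicate. Some further regions are named that were chosen after their values were seen. Members and lists were chosen with earlier results of these data known. Functions were checked on simulated positions. Python 3.11.15 with numpy 2.4.6 and scipy 1.17.1 was used.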

Additional observations from a re-analysis of the deposited data

How the results depend on the processing

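Over 41 alternatives for 6 measures, 22 values stayed within the 95% exact binomial interval of the main value, which covers counting error only, and 19 moved outside it. The interval takes regions as independent draws, and many alternatives reuse the same regions. It serves as a yardstick for the size of a move and is no test. The share of listed regions on V lay between 11.8% and 13.9% under every alternative tried, the ce10 list included, and never reached its share of length. Taking ranks 1 to 1000, the centre held 66.1% of V regions, promoters 48.0%, small RNA genes 27.6% and both replicates' top 3000 81.9%. Taking ranks 1 to 6000, promoters held 37.0%, small RNA genes 7.80% and both replicates 21.4%. In the authors' IDR-thresholded list the centre held 71.1%, rich windows 23.7%, promoters 48.7%, small RNA genes 40.8% and both replicates 93.4%. The central part from 6.97 to 13.9 Mb held 40.3%. Rich windows held 30.0% at a limit of 3 chemoreceptor genes and 10.0% at 8. Promoters held 29.2% when counted from -500 to +100 bp and 55.5% from -2000 to +300 bp. Both replicates held 31.1% when summits had to lie within 100 bp. With only replicate 2's or replicate 1's list, the V share was 12.8% and 13.1%, and the promoter share ranged from 37.3% to 44.1%. The limits on distance move these values by their construction. For the share in both replicates, so do the rank limits and the IDR threshold, because the limit of 3000 in each replicate was kept. The cause of the other moves was not tested. Depth is unknown, so weak regions cannot be told from regions sequenced less. No paired analysis was possible because there is a single group.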

Other observations

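The longest gap on V includes all 15 ribosomal RNA genes annotated on V. A tandem cluster within this gap holds 14 of them together with 12 spliced leader SL1 genes. The spliced leader is the short RNA that is joined to the start of many worm messenger RNAs, and these ribosomal RNA genes encode 5S RNA. The cluster covers 16.2 kb, and 17.2% of its 31-base sequences are unique in the genome. None of the 30000 regions lay within 1 kb of it, so the lists say nothing about signal there.

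Among members in less unique sequence, 4 had under 50% unique 31-base sequences. They were an intron region of ttr-57 (signal 110.0), 2 overlapping intergenic regions (106.7 and 88.99) and the tRNA-Gly gene ZC132.t1 (89.21), all below the authors' list.

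Of the tRNA genes of V that lie inside a protein-coding gene, 18 of 48 (37.5%) had a member, against 7 of 30 (23.3%) of those outside. Over all tRNA genes the share was 32.1% on V and 40.5% on all 6 chromosomes. These counts are small, the split was made on V only, and the difference was not tested.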
